A study of Ovis aries with 5 samples.

Results

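The TBX3 locus was described as all ChIP-Seq peaks and joint regions within 300 kb of a selective sweep region on chromosome 17 from 59450001 to 59520000 of the sheep assembly Oar_v3.1. Sweep regions are stretches in which domestic sheep have low diversity and differ from the wild mouflon. No measured histone value chose the members. The window of 670 kb ran from 59150001 to 59820000 and held 57 of the 213217 peaks called in single libraries and 17 of the 83306 regions of the joint lists. The 4 libraries came from perirenal adipose tissue, the fat around the kidney, of 2 untreated wild type fetuses of pure bred merino sheep at 132 days of gestation. H3K4me3 and H3K27ac were each measured once in each fetus, named here replicate 1 and replicate 2, and all libraries were compared with 1 input of nucleosomal DNA pooled over the fetuses. For H3K27me3, the joint list of positions found in both of its replicates was used, so regions of this mark have no value per animal. The design has 1 tissue and 1 age and no treatment, so the values below are descriptions of this tissue.

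TBX3 is a T-box transcription factor, which acts mainly as a repressor and shapes limbs, mammary glands and the conduction system of the heart. Regulatory changes near it alter hair pigmentation in horses. H3K4me3 marks the nucleosomes at active or poised promoters, H3K27ac marks active promoters and enhancers, and H3K27me3 is set by Polycomb complexes, which hold developmental genes silent in tissues that do not use them. Genes that encode developmental transcription factors often carry wide domains of these marks. ChIP-Seq of whole tissue averages over its cells, so marks on different cells and marks on the same nucleosome cannot be told apart.

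After removal of duplicates, 92882463 and 109652707 tags were left for H3K4me3 in replicates 1 and 2, 144038222 and 145716523 for H3K27ac and 26651829 for the input. The authors called peaks with MACS, which gives each peak its tags, its fold enrichment (the linear ratio to the tags expected from the input) and its FDR in percent. Merging peaks that overlapped between replicates within an FDR of 1% for H3K4me3 and 10% for H3K27ac gave 16098 of 16098 and 35265 of 35266 regions of the joint lists. Gene annotations of Oar_v3.1 and adipose marker genes were not analysed here.

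The marks were distributed unevenly around the sweep. In the following, below and above mean towards lower and higher coordinates, with distances counted from the nearer edge of the sweep region. All 3 joint H3K4me3 regions and all 8 joint H3K27me3 regions lay above the sweep. Of the 6 joint H3K27ac regions, 3 lay below it, 1 lay inside it and 2 lay above it. The nearest H3K27me3 region started 24.4 kb above the sweep, and below this region the chromosome had no joint H3K27me3 region for 540.9 kb. The first joint H3K4me3 region started 213.0 kb above the sweep.

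**Figure D1:**
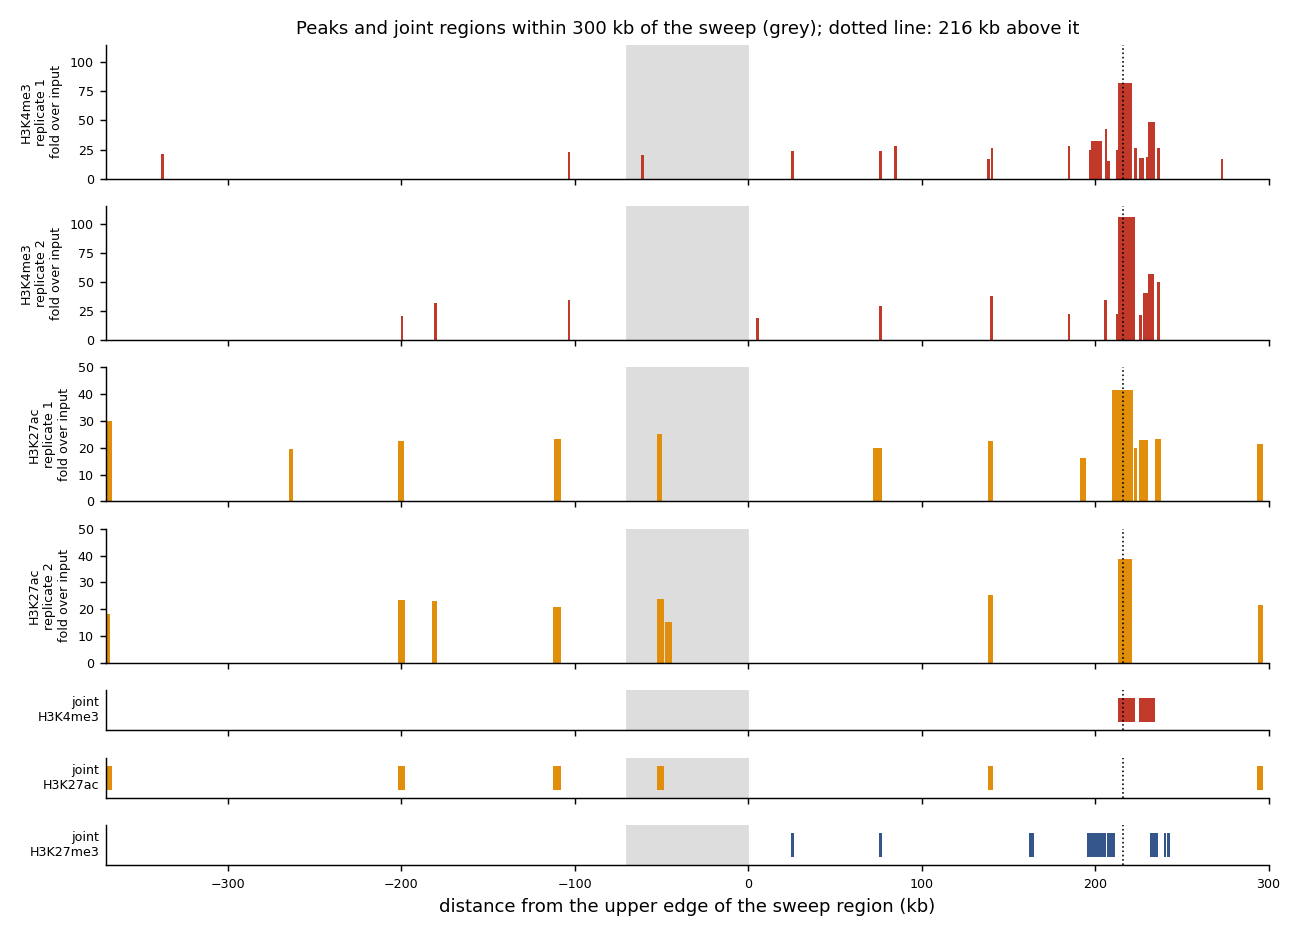
Peaks in the 4 libraries (bar height, fold enrichment over the input) and the joint regions (boxes without a value) across the window, by distance in kb from the upper edge of the sweep region, which is the grey band of 70 kb that ends at 0. Peaks under 1.5 kb are drawn 1.5 kb wide, and the dotted line stands 216 kb above the sweep, where both H3K4me3 libraries had their highest bars, at 82.21 and 105.99.

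Among the zones of the window, H3K4me3 and H3K27me3 were both densest in the same one. Between 200 and 300 kb above the sweep, joint H3K4me3 regions covered 19.1% and H3K27me3 regions 18.7% of the sequence, against 2.06% and 1.97% of the autosomes. H3K27me3 covered 7.92% between 100 and 200 kb and 3.81% within 100 kb above the sweep. Joint H3K27ac regions covered 6.10% of the sweep itself, 4.43% of the 100 kb below it and 3.23% of the zone between 200 and 300 kb above it, against 7.47% of the autosomes. The joint list leaves out the longest H3K27ac peaks of the window, which lie in the latter zone. With all H3K27ac peaks of a library counted, that zone was covered to 25.6% in replicate 1 and 10.7% in replicate 2, against 9.25% and 8.60% of the autosomes. In the sweep, the peaks covered 4.18% in replicate 1 and 12.1% in replicate 2. Over the whole window the joint lists covered 2.85% for H3K4me3, 3.28% for H3K27ac and 4.55% for H3K27me3. Autosomal windows of the same length, laid end to end, held a median of 3 H3K4me3 (quartiles 1 to 6), 8 H3K27ac (2 to 16) and 2 H3K27me3 regions (0 to 5). The window thus had the median number of H3K4me3 regions, an H3K27ac number within the quartiles, and more H3K27me3 regions than the upper quartile. With flanks of 500 kb, H3K27me3 covered 13.1% of the sequence and H3K4me3 2.43%. H3K27me3 was therefore denser in the added sequence than in the window, and its cover is not centred on the zone named above.

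**Figure D2:**
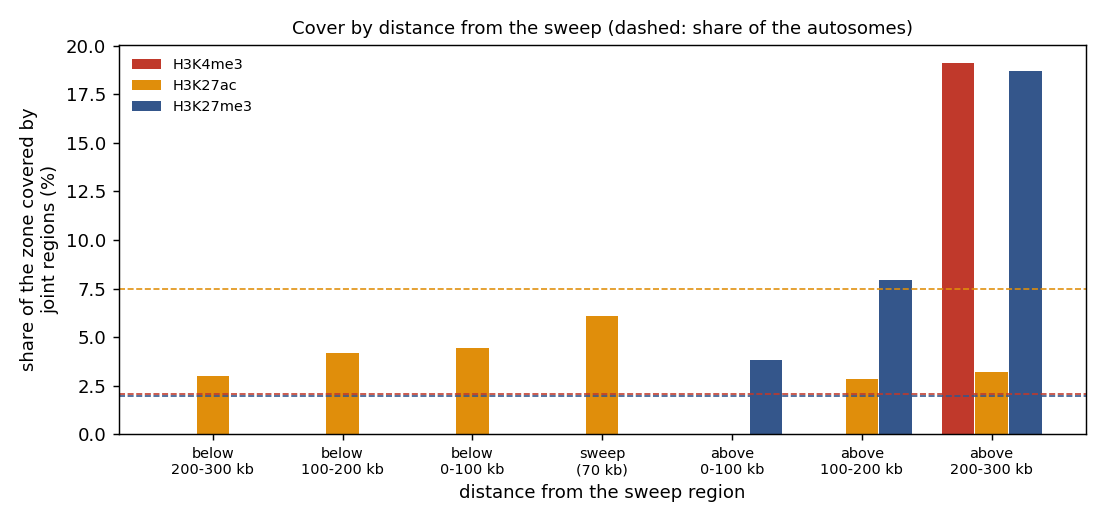
Share of sequence covered by the joint regions of each mark (bars, percent) in the 70 kb sweep region and in zones of 100 kb on each side of it. Dashed lines give the share over the autosomes. Among the zones drawn, H3K4me3 (19.1%) and H3K27me3 (18.7%) were highest between 200 and 300 kb above the sweep, where the window ends.

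The sweep region held 1 joint H3K27ac region, from 59467362 to 59471633, and no joint region of the other marks. In replicate 1 its peak had 398 tags in 2927 bp (95% Poisson interval 360 to 439, which covers counting error only), and in replicate 2 it had 610 tags in 4272 bp (563 to 660). The fold enrichment was 25.0 and 23.89, in the middle of the autosomal H3K27ac peaks of each library, whose medians were 24.7 and 24.6. The tags per kb, 136 and 143, and the summits, 88 bp apart, also differed little, so that the larger tag count of replicate 2 went with its longer peak. Replicate 2 had a further H3K27ac peak in the sweep from 59471822 to 59476023 with 569 tags. Its fold enrichment of 15.25 was low for this library (percentile 0.482 of the autosomal peaks), and replicate 1 had no peak there. For H3K4me3, the sweep held a peak of replicate 1 from 59458479 to 59459729 (152 tags, 20.16-fold, FDR 2.47%), which replicate 2 lacked.

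TBX3 lies about 216 kb from the sweep. At this distance above the sweep, position 59736000 fell within a peak of all 4 libraries, while the point 216 kb below, position 59234001, was 21390 bp from the nearest peak. In RefSeq genes of another sheep assembly, ARS-UI_Ramb_v3.0, TBX3 lies between MED13L and TBX5, a closely related T-box gene. The sources used here do not say on which side of the sweep the gene lies. The side above was taken because of the peaks there, so a peak at this distance is not a finding. The name TBX3 for this point, used below, rests on that choice. The strength and length of the marks there describe the point and are not evidence on the gene. The gene's own start and strand were not placed.

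The H3K4me3 domain at position 59736000, named here the domain at TBX3, was long and strongly enriched in both animals. Replicate 1 had a peak from 59733044 to 59741234 with 2642 tags, and replicate 2 a peak from 59733240 to 59742944 with 4163 tags. Per 1000000 tags kept, this was 28.4 over 8191 bp and 38.0 over 9705 bp. The 95% Poisson intervals of the counts were 2542 to 2745 and 4037 to 4291, so the tags per 1000000 kept differed between the libraries by more than counting error. The fold enrichment was 82.21 in replicate 1, rank 93 of 45267 autosomal peaks, and 105.99 in replicate 2, rank 411 of 51306. Both peaks reached the highest score that MACS gave in these lists, 3100, at an FDR of 0 and 0.29%. The joint region, from 59733044 to 59742944, was 9901 bp long and ranked 322 among the 15350 autosomal H3K4me3 regions by length, in the longest 2.10%. The summits of the peaks lay 668 bp apart.

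Short H3K4me3 peaks stood next to this domain. Just below it, a peak from 59731899 to 59732992 had 128 tags (24.27-fold) in replicate 1, and one from 59731910 to 59732976 had 124 tags (22.65-fold) in replicate 2, with summits 8 bp apart. Further below, inside H3K27me3, replicate 1 had a peak from 59726846 to 59728387 with 182 tags (15.55-fold, FDR 2.20%), which replicate 2 lacked. These peaks were far less enriched than the domain itself. At its upper end, replicate 1 had a separate peak from 59742144 to 59743896 with 180 tags (26.62-fold), of which 801 bp overlapped the long peak of replicate 2. An H3K27ac peak of replicate 1 lay there too, from 59742301 to 59744141, with 219 tags (19.9-fold), and replicate 2 had none.

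H3K27ac at this domain was the strongest of the window in each animal, although no joint H3K27ac region lies there. Replicate 1 had a peak of 12003 bp from 59729926 to 59741928 with 2264 tags (15.7 per 1000000 kept), and replicate 2 a peak of 8060 bp from 59733062 to 59741121 with 1525 tags (10.5 per 1000000 kept). The fold enrichment was 41.75 and 38.83, at percentiles 96.7 and 94.8 of the autosomal peaks. The next highest in the window was 30.1 in replicate 1 and 25.21 in replicate 2. The FDR of the pair was 19.1% and 22.2%, outside the limit of 10%, within which lay 96.9% and 96.2% of the autosomal H3K27ac peaks. By the score that MACS gave, however, the pair was the highest of the window, with 664.09 and 658.87. The next highest scores were 177.24 in replicate 1 and 151.93 in replicate 2. In the window, 12 of 13 and 8 of 9 H3K27ac peaks were within the limit, and the peak at TBX3 was the exception in each library. Among the 621 autosomal H3K4me3 regions of at least 8 kb, 16.6% overlapped an H3K27ac peak of replicate 1 outside the limit, 20.1% one of replicate 2, and 44.6% a region of the joint H3K27ac list. The summit of H3K27ac in replicate 1 lay 19 bp from that of H3K4me3 in replicate 2, and the summit of H3K27ac in replicate 2 lay 37 bp from that of H3K4me3 in replicate 1. Within an animal, the summits of the marks were 687 and 705 bp apart.

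**Figure D3:**
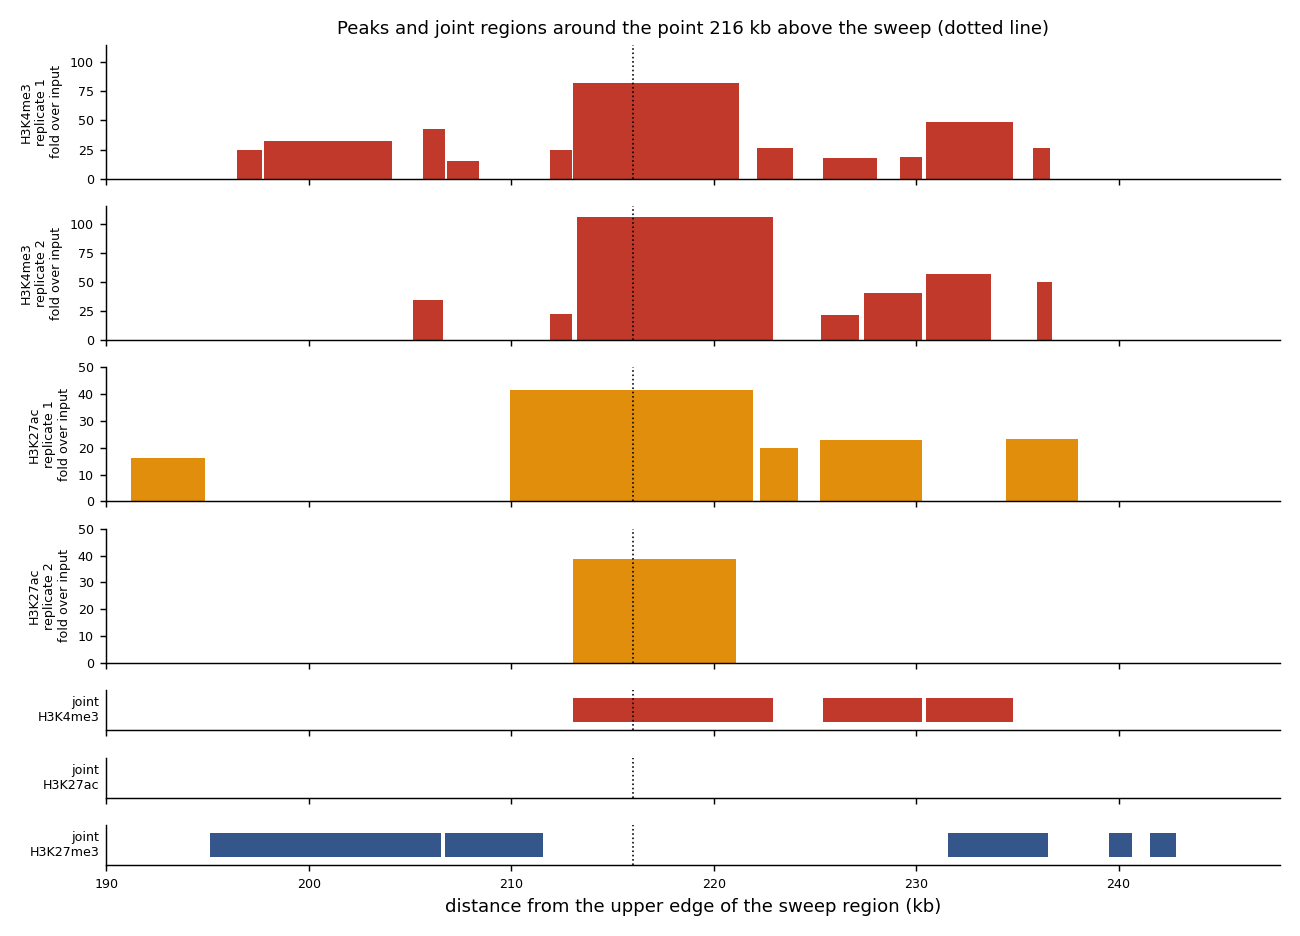
The surroundings of TBX3, by distance in kb from the upper edge of the sweep region, with the fold enrichment of the peaks in each library (bars, to scale in width) and the joint regions (boxes). The dotted line stands 216 kb above the sweep, within the widest H3K4me3 and H3K27ac bars, and the boxes of H3K27me3 leave a stretch of 20.0 kb free around it.

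H3K27me3 regions flanked this domain and did not enter it. On the lower side, a region of 11425 bp from 59715109 to 59726533 and a region of 4843 bp from 59726706 to 59731548 were separated by 172 bp, and the latter ended 1495 bp before the joint H3K4me3 region. On the upper side, the next H3K27me3 region ran from 59751584 to 59756516, 8639 bp beyond the end of the domain, followed by short regions from 59759523 to 59760686 and from 59761574 to 59762839. The stretch without H3K27me3 was thus 20035 bp long, and H3K27me3 covered 16.3 kb below it and 7.4 kb above it within 30 kb of position 59736000. These 5 regions made up 77.6% of the H3K27me3 sequence of the window. The H3K27ac peak of replicate 1 reached 1623 bp into the lower H3K27me3 region, and that of replicate 2 did not overlap it.

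Among the autosomal H3K4me3 regions of at least 8 kb, 18.0% overlapped an H3K27me3 region. H3K27me3 lay within 10 kb on at least 1 side of 20.6%, and on both sides of 12.7%, which is 79 regions. An H3K27me3 region that also reached inside counted for a side, and all but 1 of the 79 had H3K27me3 inside. The 12.7% was thus mostly overlap and not flanking alone. H3K27me3 on both sides with none inside was found at 0.161%, which is 1 region, the one at TBX3. This arrangement was spelled out after the values at TBX3 were seen and on limits of length and distance chosen then, so its frequency is a description of the lists. It also rests on where the joint list ends the domain. The next joint H3K4me3 region follows after 2446 bp, and the one after that overlaps H3K27me3 by 3188 bp.

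Above the domain, 2 further joint H3K4me3 regions followed, from 59745391 to 59750290 and from 59750502 to 59754771. The latter was the second strongest H3K4me3 peak of the window in each library. It had 874 tags and 48.54-fold enrichment in replicate 1, and 671 tags and 56.63-fold enrichment in replicate 2. H3K27me3 covered 3188 of its 4270 bp, so that it was the single joint region of the window with both marks (1 of 3, against 12.9% of autosomal H3K4me3 regions). The region from 59745391 was split differently in the animals, into a peak of 420 tags (18.03-fold) and one of 103 tags (18.79-fold) in replicate 1 and into peaks of 276 tags (21.11-fold) and 422 tags (40.45-fold) in replicate 2. Over it, replicate 1 had an H3K27ac peak from 59745257 to 59750272 with 674 tags and 22.82-fold enrichment, and replicate 2 had none. None of the 3 joint H3K4me3 regions overlapped a joint H3K27ac region, against 56.7% of those on the autosomes. At any FDR, all 3 overlapped an H3K27ac peak of replicate 1. The region from 59750502 did so only at its upper end, where that peak started at 59754458. The domain at TBX3 also overlapped an H3K27ac peak of replicate 2. The long H3K27ac peaks of the domain were outside the FDR limit of the joint list.

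Replicate 1 had more peaks around TBX3 than replicate 2. On the autosomes it had fewer H3K4me3 peaks, 45267 against 51306, and about as many H3K27ac peaks, 50408 against 49371. Within 30 kb of position 59736000 there were 11 H3K4me3 peaks in replicate 1 and 7 in replicate 2, and 5 H3K27ac peaks against 1. The largest peak without a counterpart was an H3K4me3 peak of replicate 1 from 59717785 to 59724089. It had 857 tags over 6305 bp, a fold enrichment of 32.42 and an FDR of 0.07%, and lay wholly inside the H3K27me3 region of 11425 bp. Next to it, a peak of both animals from 59725159 to 59726717 also lay largely in H3K27me3 (1387 bp). Its fold enrichment was 42.55 with 220 tags in replicate 1 and 34.78 with 248 tags in replicate 2. The H3K27ac peak from 59754458 to 59758000 (431 tags, 23.3-fold) was another found in replicate 1 alone, and it overlapped H3K27me3 by 2059 bp. Of the H3K4me3 libraries, replicate 2 was the deeper, and the depths of the H3K27ac libraries were nearly equal. With 1 library per mark and animal, a difference between animals and one between libraries cannot be told apart.

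The 6 joint H3K27ac regions, all outside TBX3, were of middle to low strength. Their fold enrichment lay between percentiles 28.6 and 75.9 of the autosomal peaks in replicate 1. In replicate 2 it lay between percentiles 8.35 and 53.2. Within the joint list they stood apart, with gaps between neighbours from 55.34 to 186.6 kb. These gaps were not free of H3K27ac peaks. The peaks of both animals at TBX3 lay between the regions at 59658189 and 59813367, and peaks of single libraries lay in other gaps. All 6 were without a joint H3K4me3 region, as were 75.4% of the autosomal H3K27ac regions, and H3K27ac without H3K4me3 is what the study counts as an enhancer. From below to above they started at 59148070, 59317837, 59407589, 59467362, 59658189 and 59813367. The region at 59317837, 128.0 kb below the sweep, had 552 tags (22.65-fold) and 602 tags (23.48-fold). The region at 59407589, 38.0 kb below, had 640 tags (23.16-fold) and 635 tags (20.96-fold), with summits 5 bp apart. These values are nearly equal between the animals. Above the sweep, the region at 59658189 had 370 tags (22.73-fold) and 378 tags (25.21-fold), with summits 1 bp apart. The region at 59813367, 293.4 kb above the sweep, had 377 tags (21.36-fold) and 336 tags (21.76-fold). The region across the lower end of the window, at 59148070, was the least alike, with 494 tags (30.1-fold) and 466 tags (18.35-fold) and summits 2789 bp apart. Over all H3K27ac peaks of the window the median fold enrichment was 22.7 and 23.0, somewhat under the autosomal medians of 24.7 and 24.6.

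At any FDR, 2 of these 6 H3K27ac regions held an H3K4me3 peak of either library, against 55.9% on the autosomes. The region at 59658189 held one in both animals, from 59659699 to 59660359 (81 tags, 26.66-fold, FDR 4.17%) and from 59659595 to 59660587 (196 tags, 37.82-fold, FDR 1.90%). Replicate 1 had another at its lower end, from 59657643 to 59658575 (120 tags, 16.63-fold, FDR 4.75%). The region at 59317837 held one in replicate 2 alone, from 59319563 to 59320365 (103 tags, 20.29-fold).

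H3K4me3 peaks outside the joint list were in part shared. Of the H3K4me3 peaks in the window, 5 of 21 in replicate 1 and 3 of 14 in replicate 2 had an FDR of at most 1%, lower shares than the 48.7% and 34.5% on the autosomes. Without the limit, 10 H3K4me3 regions were found in both animals, of which 6 lay within 30 kb of position 59736000. Absent from the joint list were 7 of the 10, against 52.1% of such regions on the autosomes. Of the 7, 3 overlapped an H3K27me3 region, against 16.8%, and 1 an H3K27ac peak of both animals, against 31.2%. An example is the peak of 1489 bp from 59595383 to 59596871, 75.4 kb above the sweep, which had 205 tags (24.19-fold) and 230 tags (29.51-fold). H3K27me3 from 59595396 to 59597114 covered 1476 bp of it, and an H3K27ac peak of replicate 1 from 59591768 to 59597308 spanned it as well (775 tags, 20.0-fold). The peak from 59415836 to 59416624, 33.4 kb below the sweep, met no other mark and had 89 tags (22.95-fold) and 124 tags (33.97-fold).

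Taking all H3K4me3 peaks of the window, 8 of 21 in replicate 1 and 4 of 14 in replicate 2 overlapped H3K27me3, against 16.0% and 11.2% on the autosomes. The share that overlapped an H3K27ac peak of the same animal was 10 of 21 and 4 of 14, against 49.8% and 51.0%. Conversely, 3 of the 8 H3K27me3 regions held H3K4me3 peaks of both animals, against 30.7%. The peaks of a cluster share 1 locus, so these counts do not stand for independent regions.

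The fraction of peaks found in the other animal was 12 of 21 and 11 of 14 for H3K4me3 in replicates 1 and 2, against 75.5% and 65.8% on the autosomes. For H3K27ac it was 7 of 13 and 7 of 9, against 76.9% and 81.0%. Replicate 1 was below its background for both marks, and its peaks without a counterpart at TBX3 were part of this. Where peaks overlapped, the fold enrichment of H3K4me3 was higher in replicate 2 in 10 of 13 pairs, with a median ratio of replicate 2 to replicate 1 of 1.29. Some peaks entered several pairs, so the pairs are not independent. The highest ratio, 3.98, set a short peak of replicate 1 against the long peak of replicate 2 at TBX3. The autosomal pairs had a median ratio of 1.25 (quartiles 1.02 to 1.51), so the window followed the library as a whole. For H3K27ac the median ratio was 0.956 over 7 pairs, ranging from 0.61 to 1.11, and 0.984 on the autosomes.

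**Figure D4:**
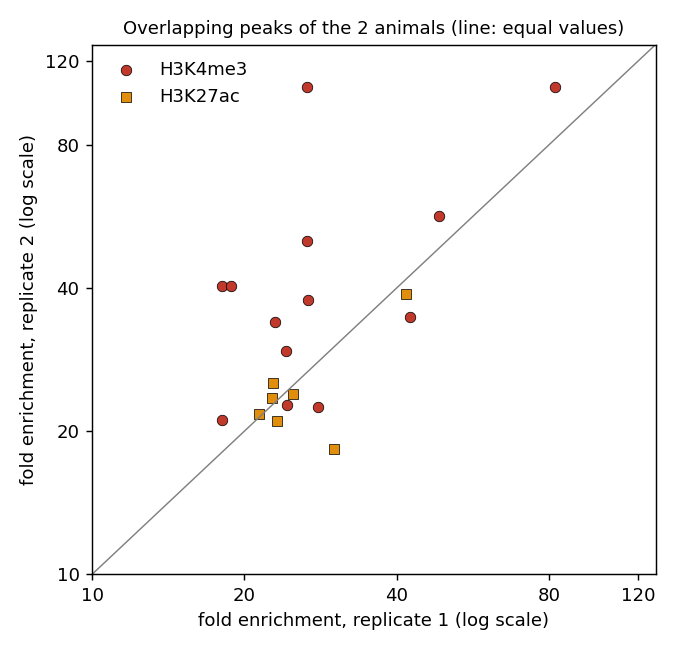
Fold enrichment over the input in replicate 1 (horizontal) and replicate 2 (vertical), both on log scales, for the 13 H3K4me3 (circles) and 7 H3K27ac (squares) pairs of overlapping peaks in the window. The line marks equal values, 10 H3K4me3 pairs lie above it, and a peak that overlaps more than 1 peak of the other animal appears once for each.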

How the data were processed

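Perirenal adipose tissue was examined by ChIP-Seq for H3K4me3 and H3K27ac in the same 2 fetuses, with a pooled input. Age and number of animals follow the labels, from which the study's methods differ. The authors mapped 50 bp reads to Oar_v3.1, kept uniquely placed reads and ran MACS 1.4.2 on every library against the input. Each deposited peak has a count of tags, a score (10 times the negative log10 of its p-value), a fold enrichment (a linear ratio to the input) and an FDR as a percent. MACS scaled the larger library to the smaller, so fold enrichment and FDR rest on the shallower input. Joint lists deposited by the authors hold positions. Per-library H3K27me3 files (2) were not used, since the labels name no sample for them.

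An overlap of at least 1 bp counted. Peaks were described by position, by replicate and by rank among autosomal peaks of their library, and cover was set beside the 26 autosomes. No test was made, because the design has no condition to compare. The text names the regions inside the sweep, those within 5 kb of the domain at TBX3 and the 3 of highest mean fold enrichment for each mark with values. The other examples were chosen after their values were seen. The members, lists and limits were chosen with earlier results of these data known. Planned counts of T-box genes were not run, because no annotation of Oar_v3.1 was used here. Overlap code was tested on simulated data. Scripts ran in Python 3.11.15 with pandas 2.3.3, numpy 2.4.6 and scipy 1.17.1, and figures were drawn in matplotlib 3.10.9.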

Additional observations from a re-analysis of the deposited data

How the results depend on the processing

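The FDR limit and the use of both animals moved the counts. With no FDR limit, 10 H3K4me3 regions were found in both replicates in place of 3, and 7 H3K27ac regions in place of 6, the added one being that at TBX3. H3K27ac then covered 5.07% of the window and H3K4me3 4.24%, alternatives chosen after seeing the data. With 1 animal left out, the H3K4me3 count ran from 3 to 5, the H3K27ac count from 8 to 12, and the count of H3K4me3 regions that overlap H3K27me3 from 1 to 3. The higher values are those of replicate 1 alone.

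The width of the window also moved the shares. With flanks of 200 kb, which leave out TBX3, H3K4me3 covered 0% and H3K27me3 2.49%. With flanks of 500 kb, H3K27me3 covered 13.1%. H3K4me3 cover with flanks of 500 kb (2.43%), H3K27ac cover under both flanks (3.34% and 2.62%), the count of H3K27ac regions without H3K4me3 under the other overlap rules (6 and 4) and that of H3K4me3 regions with H3K27me3 (1 and 1) stayed within 1.5 times. H3K27me3 was not recomputed by animal, and T-box gene counts were not run. Both marks came from the same 2 fetuses, but no paired test was made, because no test was made at all. The input of 26651829 tags limits the precision of every fold enrichment, and with 2 animals the spread between them is known from a single difference.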
